A study of Mus musculus with 24 samples.

Results

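The genes described here encode chromatin remodellers (Smarc and Chd), histone deacetylases (Hdac) and histone demethylases (Kdm), measured in sorted mouse lymphoid cells. They were chosen by name alone: every array gene named Smarca to Smarce, Chd1 to Chd9, Hdac followed by a number, or Kdm1 to Kdm6. This gave 49 of the 34844 gene names on the array: 13 Smarc, 9 Chd, 11 Hdac and 16 Kdm genes, read by 78 probes. The series profiled thymocytes and B cells from normal and altered blood-forming niches on 24 Agilent single-colour arrays. Thymocytes labelled wild type by source carried 1 mutant copy of Foxn1, the transcription factor of thymic epithelium (genotype +/-), and comprised DN3 cells (CD4- CD8-, the pre-T stage), wt DP cells (CD4+ CD8+), SP4 cells (CD4+) and SP8 cells (CD8+), with 3 arrays each. DP cells (tg DP, 4 arrays) and IgM-negative B cells (tg B, 2 arrays) came from transgenic, Foxn1-deficient thymus (-/-). Wild-type fetal liver gave IgM-negative and IgM-positive B cells, with 3 arrays each. The labels used here name neither the transgenes nor the promoters that drive them, and give no ages. Because SP8 also appears in a cell type label of the SP4 samples, that group was taken from the sample titles. Replicates are called by the numbers in their titles.

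DNA in the nucleus is wrapped around histones, and the proteins of these families change how tightly it is packed and which chemical marks the histones carry. Smarc proteins form SWI/SNF (BAF) complexes, which slide or evict nucleosomes using the ATPase Smarca4 (BRG1) or Smarca2 (BRM), or act in related remodellers. Chd proteins are ATPases of another remodeller family, Hdac enzymes remove acetyl groups from histones and other proteins, and Kdm enzymes remove methyl groups from histone lysines. BRG1, Chd4 and Hdac1 with Hdac2 are known to be needed at defined steps of thymocyte development, and Hdac7 is known for its part in the selection of DP thymocytes.

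Each gene was represented by its probe with the highest mean over the 24 arrays. All 49 of these probes have a position on mouse build mm9 in the array annotation, and 5 of them cover more than 60 bases of genome, so that they cross at least 1 exon junction (Hdac2, Kdm5a, Chd1, Chd6 and Smarcd3). Exon and untranslated-region positions of the others were not analysed here. Stretches of 30 bases are shown for the members on which the description turns, as the spot files give them: the very bright and even probes of Hdac7 and Smarcc1, the remaining Smarcc1 probes, and dim probes of Hdac2 and Kdm5a that cross junctions. Capitals mark runs of at least 3 copies of GT, TG, CT or TC, or of their complements AC, CA, AG and GA. This is wider than the letters counted below, which the marked run of Hdac2 does not hold.
Hdac7, chr15:97623208-97623267, minus strand: attTGTGTGTaTGTGTGTGTatgagtgcgt
Smarcc1, chr9:110140717-110140776, plus strand: CTCTCTCTgTCTCTCTCTCTCTgctttgtc
Smarcc1, chr9:110086584-110086643, plus strand: agcaagtccatgagccttctccccacaatt
Smarcc1, chr9:110116115-110124422, plus strand: actataatggacAGAGAGAaagaggctcta
Smarcc1, chr9:110116027-110116086, plus strand: agtccttggtagCTCTCTtggttgaaacac
Hdac2, chr10:36713455-36713589, plus strand: tcccatGAGAGAtggtatagatgatgaatc
Kdm5a, chr6:120380280-120381871, plus strand: attcttacatatcatggaggatgatagcat
The letters GTGTGT or CTCTCT, searched on both strands, occurred in 9.2% of all 55681 probes of 60 bases and in 9 of the 78 member probes. Of the 49 chosen member probes, each the brightest of its gene, 7 held them: those of Hdac7, Smarcc1, Smarce1, Smarca1, Chd5, Kdm5c and Kdm2a. The Smarcc1 probe on the first of the Smarcc1 lines held both. The median SD over the arrays, on the log2 scale, was 0.37 for probes with GTGTGT, 0.50 for probes with CTCTCT and 0.44 for probes with either, against 0.62 for all probes. Whether these letters bear on the signal was not tested.

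Levels are log2 processed signals from which the 75th percentile of the same array was subtracted, so that 0 is that percentile. Levels were compared between samples for the same probe and not between probes. On 23 arrays 87.5% to 96.7% of probes were well above background and the median processed signal was 208 to 314, against 80.6% and 125 on tg B 23. The marker lists did not separate the labelled lineages fully. The mean of 14 T-lineage genes was -0.55 to 0.45 on the 12 wt thymocyte arrays and -0.84 to -0.32 on the 6 fetal liver B arrays. The mean of 10 B-lineage genes was -0.99 to -0.45 on the former and -0.89 to 0.31 on the latter, and -0.87 to -0.44 on the tg B arrays. At least 13 of 14 T-lineage and 9 of 10 B-lineage genes were well above background on every array of each group, and all 9 myeloid genes were too (array means 0.04 to 1.04). In each group at least 6 of 8 erythroid, 4 of 6 hepatocyte and 6 of 7 thymic epithelial genes were well above background on all its arrays. Among erythroid genes, Hbb-b1 was not well above background on any DN3 or IgM-positive B array. Of the hepatocyte genes, Afp was so on at least 1 array in tg DP and IgM-negative B cells only. Of the thymic epithelial genes, Prss16 was not on any IgM-positive or tg B array. The part of other cell types in the results below was not tested, and in such bulk samples fewer cells of a type and less RNA per cell cannot be told apart. The arrays lay on 4 slides, which each hold only some of the groups, so slide values stand beside some of the results. All wt DP arrays lay on slide 2 and all SP4 and SP8 arrays on slides 1 and 3. In every SP4 or SP8 minus wt DP result below, slide and stage therefore cannot be told apart.

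Most of these genes were measured in every sample. Of the 49, 35 were well above background on all 24 arrays: 11 of 13 Smarc, 7 of 9 Chd, 8 of 11 Hdac and 9 of 16 Kdm genes. Hdac3, Smarca5 and Kdm5d were not well above background on all arrays of any group and were left out of the tests, which leaves 46 members. The spread between arrays of the same group was wide for dim probes: the pooled SD had a median of 0.38 (0.13 to 1.14) over the 35 genes and of 1.23 (0.53 to 2.03) over the 14 others. Among the members tested, the range over 24 arrays ran from 0.59 for Kdm5c to 7.14 for Smarcad1, with a median of 2.09, and it was under 1 for 7 of them.

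**Figure D1:**
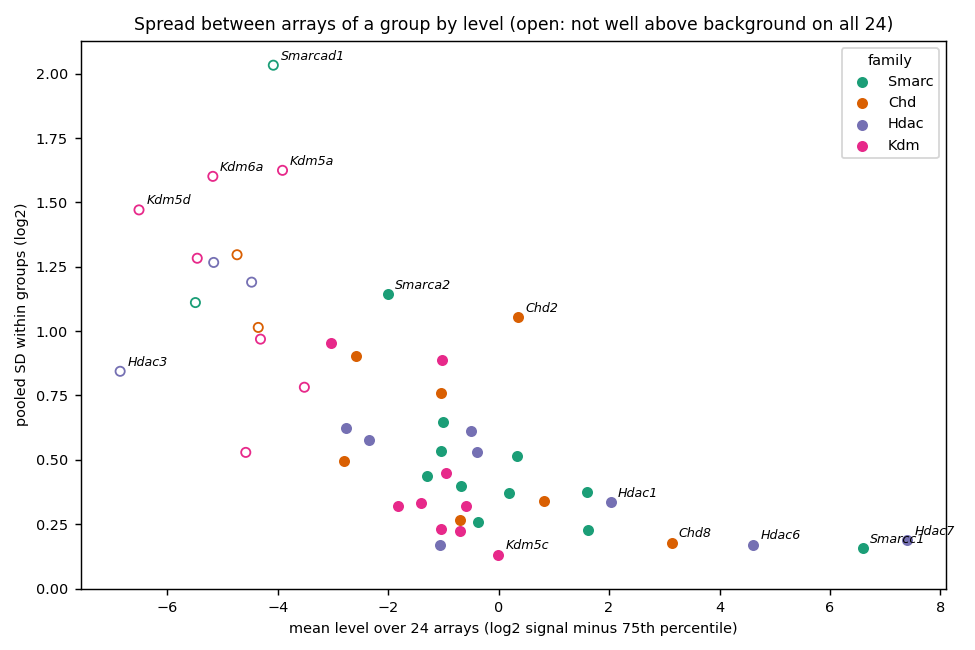
Pooled SD within groups (log2, vertical) against mean level over 24 arrays (log2 relative to the 75th percentile, horizontal) for the 49 members, coloured by family; open circles were not well above background on all 24 arrays. The brightest members, Hdac7 and Smarcc1, sit among the lowest SDs, while the dim Smarcad1, Kdm5a and Kdm6a have the highest.

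**Figure D2:**
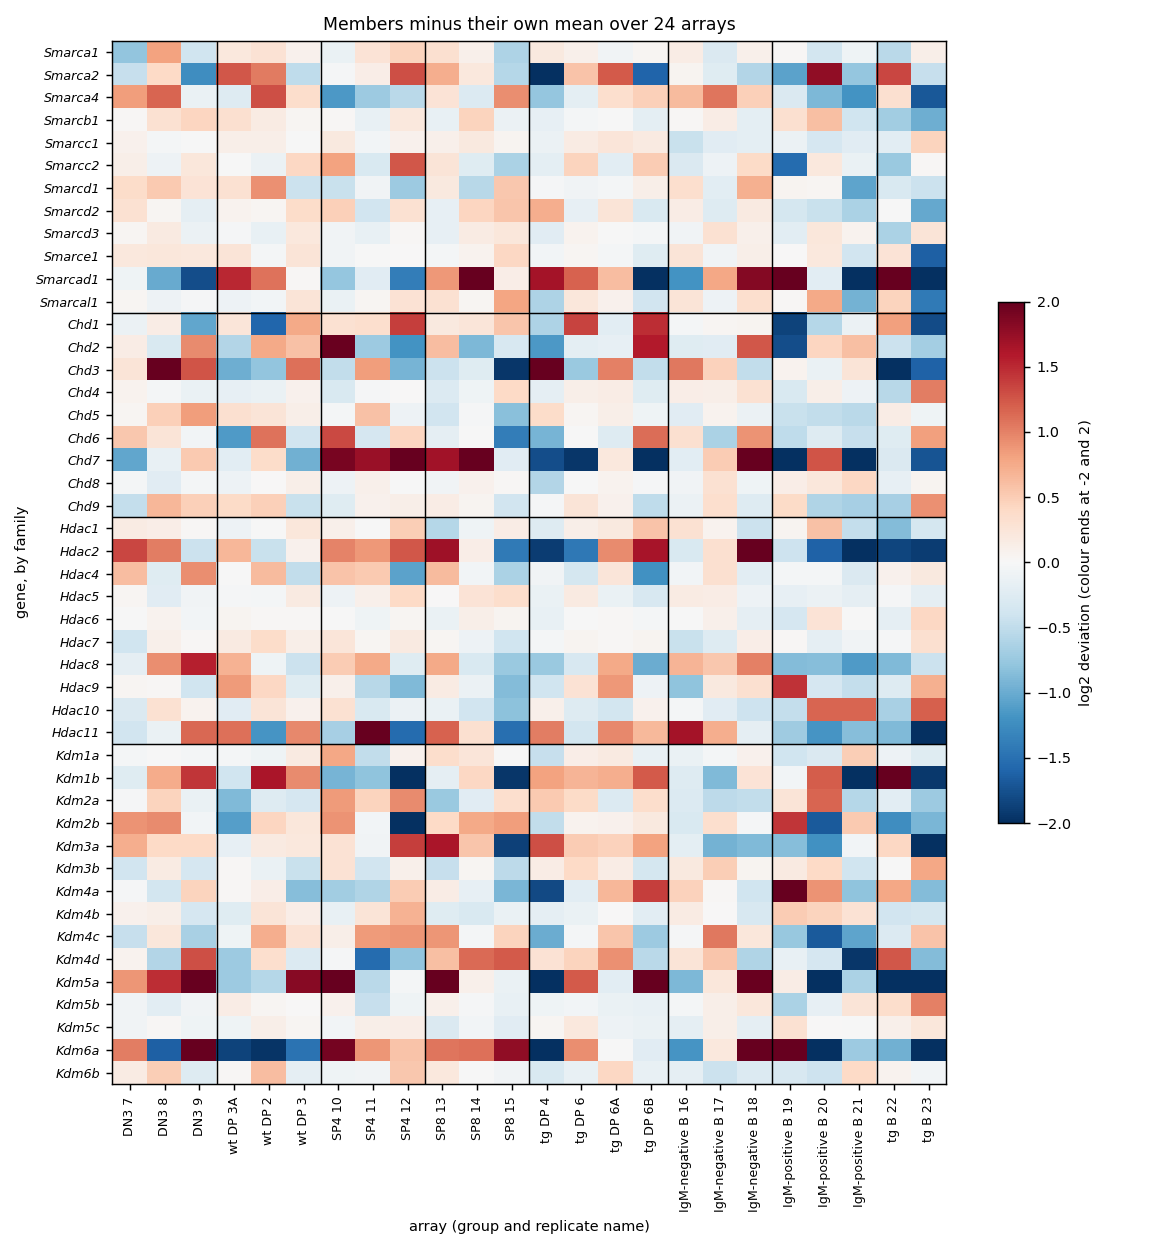
Deviation of each of the 46 tested members (rows, by family) from its own mean over 24 arrays (columns, by group), in log2 units, with colours ending at -2 and 2. Rows of strong colour belong to dim genes such as Smarcad1, Chd7, Hdac2, Kdm5a and Kdm6a, and in several of them arrays of the same group take opposite colours, while Kdm5c, Hdac6 and Smarcc1 are nearly white.

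No member passed in any comparison. With limma, each comparison was fitted over all arrays and p-values were adjusted over all 33574 genes. At an adjusted p under 0.05 the members called were 0 of 46 when the 12 wt thymocyte arrays were set against the 6 fetal liver B arrays, where 0.203% of all genes were called. They were also 0 of 46 for tg B against IgM-negative B cells (0.149% of all genes) and for any difference among the 8 groups (0.188%). In the other 6 comparisons 0.0% of all genes were called. At an unadjusted p under 0.05, 4 members stood out between thymocytes and B cells (13.3% of all genes did), 1 for wt DP against DN3 (2.06%), 5 for SP4 against wt DP (6.44%), 3 for SP8 against wt DP (2.15%) and 5 for SP4 against SP8 (5.13%). The same count was 1 for tg DP against wt DP (3.28%), 10 for tg B against IgM-negative B (17.1%), 6 for IgM-positive against IgM-negative B (7.01%) and 10 over the 8 groups (13.6%). As shares of 46 these are 8.7%, 2.17%, 10.9%, 6.52%, 10.9%, 2.17%, 21.7%, 13.0% and 21.7% in that order, so each lay between 0.65 and 3.03 times the share of all genes. Nothing in the labels ties replicates to separate animals, and the p-values therefore rest on a spread between samples that may be technical. SEs of the differences had medians over the members of 0.25 to 0.46 on the log2 scale and reached 1.76, so a miss does not show that levels were alike.

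**Figure D3:**
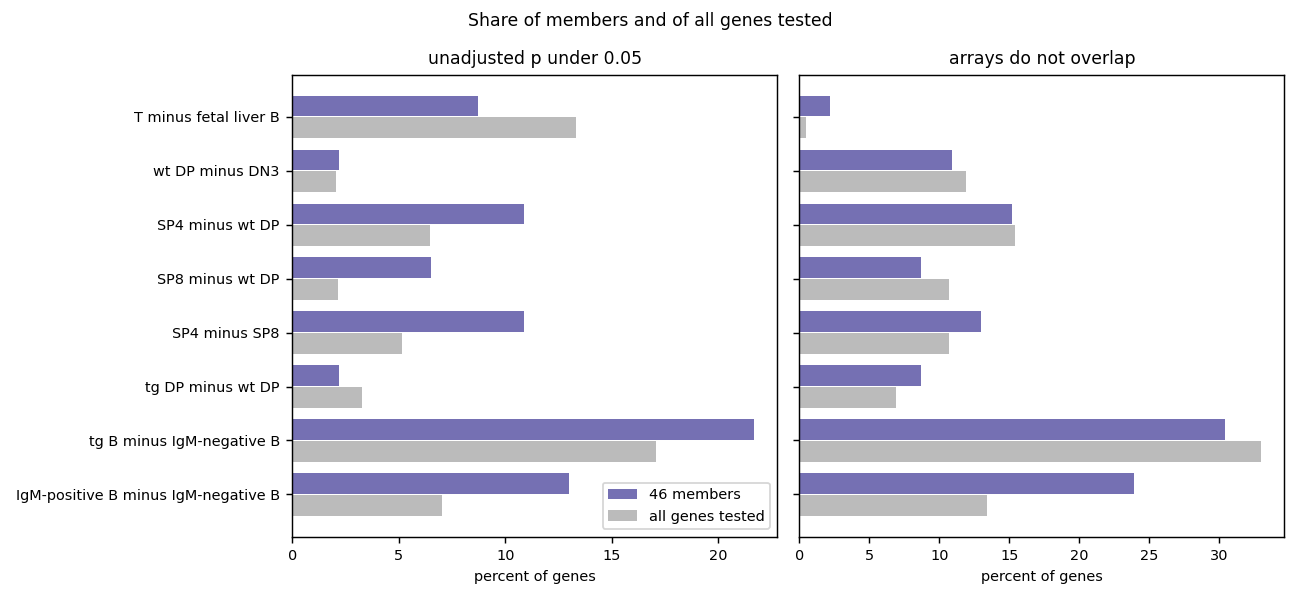
Percent of the 46 tested members (purple) and of all genes tested (grey) with an unadjusted p under 0.05 (left) and with arrays that do not overlap between the groups compared (right), for the 8 comparisons. On the left the bar of members is shorter than that of all genes for thymocytes minus B cells (8.7% against 13.3%) and tg DP minus wt DP (2.17% against 3.28%), near it for wt DP minus DN3 (2.17% against 2.06%) and longest relative to it for SP8 minus wt DP (6.52% against 2.15%).

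**Figure D4:**
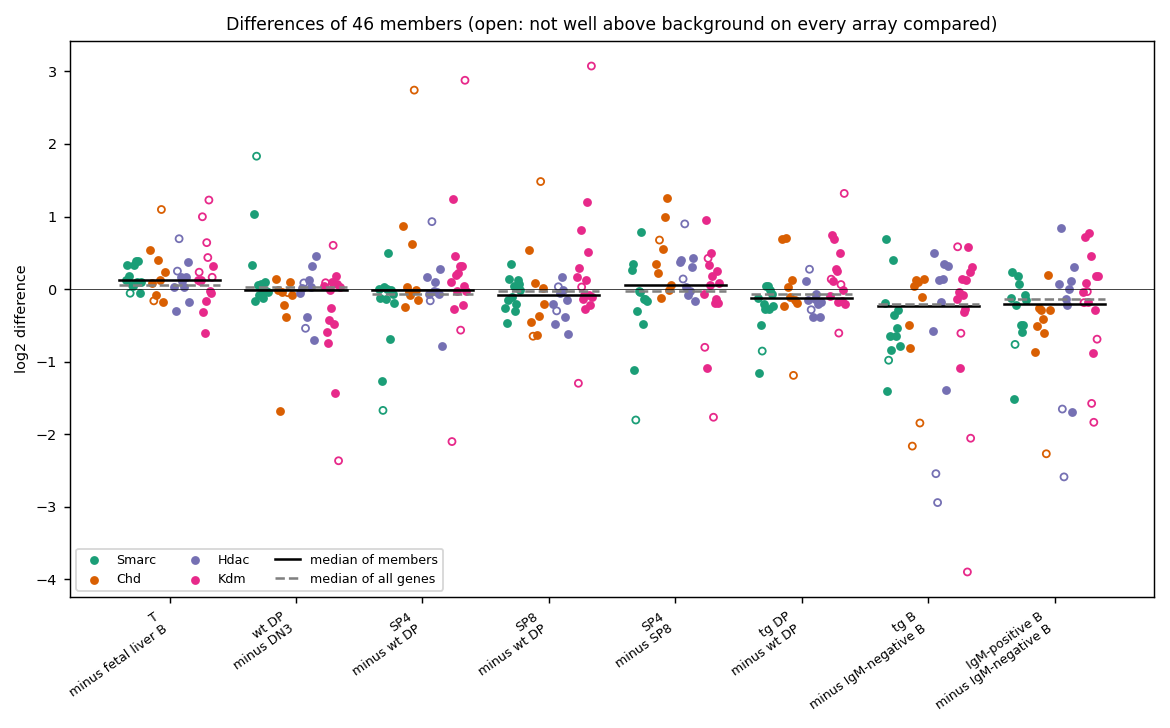
Log2 difference of each tested member in each of the 8 comparisons, coloured by family, with open circles where the probe was not well above background on every array compared; the solid line is the median of the members and the dashed line that of all genes. Most points lie near 0, and differences beyond 2 on this scale are nearly all open circles.

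The Smarc genes had a median pooled SD of 0.42, against 0.76 for Chd, 0.55 for Hdac and 0.53 for Kdm genes. Smarcc1 (BAF155), a core scaffold subunit of BAF, was the only member whose thymocyte and fetal liver B arrays did not overlap (0.444% of all genes did not). Its levels were 6.54 at the lowest, 6.67 at the median and 6.79 at the highest of the 12 wt thymocyte arrays. On the 6 fetal liver B arrays they were 6.15, 6.36 and 6.48. All B arrays therefore lay below all wt thymocyte arrays, by a difference of 0.32 (SE 0.10, adjusted p = 0.14). The tg DP arrays were at 6.48, 6.75, 6.83 and 6.77, and the tg B arrays 22 and 23 at 6.38 and 7.03. Tg B 23, the dimmest array, was thus the highest of all 24 for this gene. The other 3 Smarcc1 probes gave thymocyte minus B differences of 0.30, -0.50 and -0.33, and with the mean over the 4 probes the difference was -0.05. On slide 1, the only slide with both kinds of cell, 1 SP4 and 1 IgM-positive array differed by 0.06.

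Smarcb1 (SNF5), another core BAF subunit, had its lowest levels in tg B cells. The tg B arrays were at -1.08 and -1.35, and the IgM-negative B arrays at -0.35, -0.23 and -0.57. Both tg B arrays lay below every other array of the series, whose lowest value was -0.78 on IgM-positive B 21. The difference from IgM-negative B cells was -0.83 (SE 0.25, adjusted p = 0.15), and all 5 arrays were on slide 4. Smarce1 (BAF57), a DNA-binding BAF subunit, differed by -0.78 (SE 0.34, adjusted p = 0.26), but this came from 1 array: tg B 22 was at 1.87 and tg B 23 at -0.03, against 1.53 to 1.86 in IgM-negative B cells. Smarcd3 (BAF60c) was even throughout, with group means between 1.43 and 1.72.

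Smarca4 encodes BRG1, the ATPase motor of BAF. It was at -2.16, -1.73 and -1.55 in SP4 cells, at -1.27, 0.28 and -0.66 in wt DP cells and at -0.74, -1.29 and -0.08 in SP8 cells. All SP4 arrays lay below all wt DP and all SP8 arrays, with differences of -1.27 (SE 0.51, adjusted p = 0.70) and -1.11 (SE 0.51, adjusted p = 0.96). A second probe of the gene went the other way in both comparisons, with 0.62 and 1.23. In B cells Smarca4 was at -0.38, 0.06 and -0.54 in the IgM-negative, at -1.30, -1.90 and -2.21 in the IgM-positive and at -0.69 and -2.70 in the tg B arrays. Here too all IgM-positive arrays lay below all IgM-negative arrays, by -1.51 (SE 0.51, adjusted p = 0.56), and the second probe gave -1.88. Within slide 4, with 2 IgM-positive arrays, the difference was -1.76. The tg B difference was -1.41 (SE 0.57, adjusted p = 0.23) on the first probe and 0.46 on the second.

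Smarca2 (BRM), the alternative ATPase, had no such pattern: its group means ran from -2.58 in tg DP to -1.42 in wt DP cells, with SDs of up to 1.74. The ISWI ATPase Smarca5 (SNF2H) was well above background on 10 of 24 arrays. Smarcad1, a remodeller linked to heterochromatin, had the largest spread of all members: the IgM-positive B arrays alone were at -0.84, -4.29 and -7.98.

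**Figure D5:**
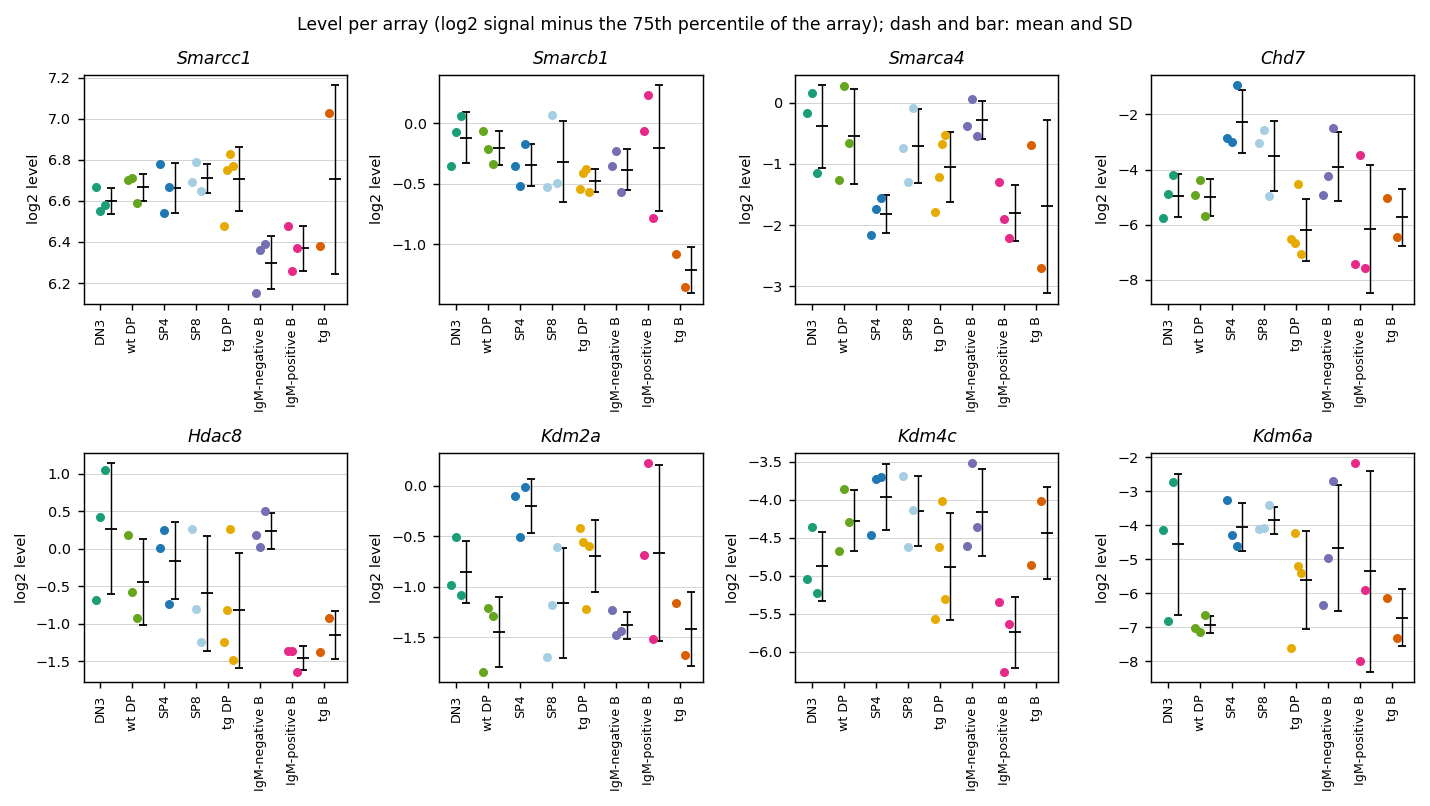
Level of 8 members on each array (points) with group mean and SD (dash and bar), as log2 signal minus the array's 75th percentile, by group. Smarcc1 is lower on all 6 fetal liver B arrays than on all 12 wt thymocyte arrays, Smarcb1 is lowest on both tg B arrays, and Kdm6a was not well above background on the 3 wt DP arrays or on DN3 8, and was so on all SP4 and SP8 arrays.

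Among the Chd genes, Chd4 (Mi-2beta), the ATPase of the NuRD deacetylase complex, was nearly level across cells: its group means lay between 0.71 and 1.05, and the tg B arrays were at 0.26 and 1.84. Chd8, known as a regulator of Wnt signalling, was also even, with group means of 2.99 to 3.39. Chd1, which binds histone methyl marks at active genes, had group means from -3.43 in IgM-positive B to -1.91 in SP4 cells, and SDs of up to 1.84.

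Chd7, the remodeller mutated in CHARGE syndrome, had the smallest p of all members over the 8 groups (adjusted p = 0.20). Its levels were -2.84, -3.01 and -0.93 in SP4 cells, -3.05, -2.56 and -4.96 in SP8 cells and -4.94, -4.37 and -5.70 in wt DP cells. The SP4 arrays lay above all wt DP arrays, by 2.74 (SE 1.01, adjusted p = 0.64), while 1 SP8 array fell into the wt DP range. The probe was well above background on all 6 SP arrays, on 2 of 3 wt DP arrays and on 1 of 4 tg DP arrays. In fetal liver it was at -4.94, -4.23 and -2.51 in IgM-negative and at -7.44, -3.48 and -7.58 in IgM-positive B cells. These overlap, and their difference was -2.27 (SE 1.01, adjusted p = 0.68).

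Chd5, a NuRD ATPase best known from neurons, was higher on average in thymocytes than in fetal liver B cells, by 0.40 (SE 0.14, adjusted p = 0.22). The wt thymocyte arrays lay between -1.53 and 0.13 with a median of -0.62, and the B arrays between -1.24 and -0.63 with a median of -1.04. The ranges overlap. SP8 cells, at -1.08, -0.72 and -1.53, were lower than the wt DP arrays at -0.38, -0.45 and -0.58. That SP8 minus wt DP difference was -0.64 (SE 0.23, adjusted p = 1.0), with no overlap. The IgM-positive B arrays, at -1.15, -1.20 and -1.24, were closely grouped below the IgM-negative ones, at -0.93, -0.63 and -0.82. Chd3, the paralogue of Chd4, was dim: its DN3 arrays were at -4.09, -1.5 and -3.10 and its wt DP arrays at -5.33, -5.14 and -3.25, a difference of -1.68 (SE 0.79, adjusted p = 1.0). These groups overlap, and within slide 2, with 1 DN3 array, the difference was -0.48.

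The class I deacetylases differed in how well they were measured. Hdac1 was well above background everywhere, with group means between 1.86 and 2.24 except for 1.43 in tg B cells, whose arrays were at 1.17 and 1.68. Its partner Hdac2 was dim, and well above background on 11 arrays, including all 3 SP4 arrays and none of the 5 IgM-positive and tg B arrays. The IgM-negative B arrays were at -5.46, -4.84 and -1.94, the IgM-positive at -5.58, -6.77 and -7.66 and the tg B at -6.99 and -7.05. IgM-negative B 18 stood far above the others, and IgM-negative B 16 was not well above background, so its order against the IgM-positive and tg B arrays is not known. Against the lowest measurable level, Hdac2 was at least 2.77-fold higher in IgM-negative than in IgM-positive B cells (means -4.08 and -6.67, adjusted p = 0.63) and at least 2.21-fold higher than in tg B cells (mean -7.02, adjusted p = 0.20). Both bounds rest on single arrays: they were 1.32-fold and 1.05-fold without IgM-negative B 18, and 4.48-fold and 3.58-fold without IgM-negative B 16. Such a bound sets the brighter group's mean against the lowest signal well above background on each array of the dimmer group, or the probe's own signal if higher, and does not account for replicate spread. Hdac3, the deacetylase of NCoR complexes, was well above background on 3 arrays: DN3 8, SP8 13 and IgM-negative B 16.

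Hdac8, an X-linked class I enzyme that also deacetylates cohesin, separated the fetal liver B stages. It was at 0.18, 0.03 and 0.50 on the IgM-negative arrays and at -1.37, -1.36 and -1.64 on the IgM-positive ones. The IgM-positive arrays were closely grouped and lay below all IgM-negative arrays, by -1.69 (SE 0.48, adjusted p = 0.47). Within slide 4 the difference was -1.74. The tg B arrays, at -1.38 and -0.93, also lay below the IgM-negative arrays, by -1.39 (SE 0.54, adjusted p = 0.22). The second Hdac8 probe, well above background on 22 arrays, gave 0.76 for IgM-positive against IgM-negative and -1.12 for tg B against IgM-negative cells. The wt thymocyte arrays ran from -1.24 to 1.05 and overlapped with both B stages: DN3 cells were at -0.68, 0.43 and 1.05 and SP8 cells at 0.26, -0.80 and -1.24.

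Hdac7, a class IIa deacetylase highly expressed in DP thymocytes, was bright and even here, between 6.95 and 7.76 on all 24 arrays. The wt DP arrays were at 7.58, 7.76 and 7.51, the SP8 arrays at 7.43, 7.29 and 6.99 and the DN3 arrays at 6.99, 7.49 and 7.42. All wt DP arrays lay above all SP8 and all DN3 arrays. The difference was -0.38 for SP8 minus wt DP (SE 0.18, adjusted p = 1.0) and 0.32 for wt DP minus DN3 (SE 0.18, adjusted p = 1.0). The tg DP arrays were at 7.36, 7.45, 7.42 and 7.45, below every wt DP array, with a difference of -0.20 (SE 0.16, adjusted p = 1.0). On slide 2 alone, with 3 arrays of each, the tg DP minus wt DP difference was -0.18. Fetal liver B cells were at 6.95 to 7.53 and wt thymocytes at 6.99 to 7.76, so the ranges overlap. This gene has 1 probe, the one with the GT runs shown above, so no second probe could be set beside it.

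Hdac6, the X-linked tubulin deacetylase, was also even across groups, with group means from 4.57 to 4.73. Its probes overlap by most of their length and were measured alike. Hdac11, the lone class IV enzyme, was dim. It was at -2.81, -3.74 and -4.66 in IgM-negative B cells and at -5.36 and -7.20 in tg B cells, where no array was well above background. It was at least 2.80-fold higher in the former (means -3.73 and -6.28, adjusted p = 0.23).

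The Kdm genes of the lysine-specific demethylase type were Kdm1a (LSD1) and Kdm1b (LSD2). Kdm1a was even, with group means of -0.76 to -0.39. Kdm1b was dim and not well above background on any of the 6 SP arrays, but so on 2 of 3 wt DP, 2 of 3 DN3 and 4 of 4 tg DP arrays. SP4 cells were at -6.39, -6.26 and -7.85, SP8 cells at -5.64, -5.05 and -7.40 and wt DP cells at -5.86, -3.83 and -4.51. In wt DP cells the level was at least 1.5-fold higher than in SP4 cells (means -4.73 and -6.84, adjusted p = 0.77). This bound rests on single arrays: it was 1.10-fold without wt DP 2 and 2.22-fold without wt DP 3A. The order of the SP arrays against wt DP 3A is not known, since none of these was well above background.

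Kdm2a, a JmjC demethylase that binds unmethylated CpG islands, was highest on average in SP4 cells. It was at -0.10, -0.51 and -0.01 there, at -1.84, -1.21 and -1.29 in wt DP cells and at -1.70, -1.18 and -0.61 in SP8 cells. All SP4 arrays lay above all wt DP and SP8 arrays, by 1.24 (SE 0.36, adjusted p = 0.44) and 0.96 (SE 0.36, adjusted p = 0.86). On slide 3 the SP4 minus SP8 difference was 1.11, while SP4 and wt DP share no slide. The tg DP arrays were at -0.42, -0.56, -1.22 and -0.60, of which 3 lay above all wt DP arrays, and the difference was 0.75 (SE 0.34, adjusted p = 1.0). Kdm2a was the only member with an unadjusted p under 0.05 between tg DP and wt DP cells. DN3 cells, at -0.98, -0.51 and -1.08, were also above all wt DP arrays.

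Of the Kdm4 enzymes, which remove repressive methyl marks, Kdm4c was lowest in IgM-positive B cells, at -5.34, -6.26 and -5.63. The IgM-negative B arrays were at -4.61, -3.52 and -4.36. The groups did not overlap, and the difference of -1.58 (SE 0.42, adjusted p = 0.41) had the smallest p of any member between these B cells. The probe was well above background on all 3 IgM-negative arrays and on 1 of 3 IgM-positive arrays. Thymocytes lay above B cells on average, by 0.64 (SE 0.26, adjusted p = 0.28), but the IgM-negative B arrays fell within the thymocyte range of -5.23 to -3.69, apart from IgM-negative B 17, which was above it. Kdm4b went the other way between the B stages. It was at -0.19, -0.25 and -0.41 in IgM-positive and at -0.54, -0.69 and -1.02 in IgM-negative B cells, with no overlap and a difference of 0.46 (SE 0.20, adjusted p = 0.66).

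Kdm4d separated the mature thymocytes. It was at -2.92, -2.39 and -2.29 in SP8 cells and at -3.54, -5.06 and -4.30 in SP4 cells. The difference was -1.77 (SE 0.61, adjusted p = 0.81), and on slide 3 it was -1.39. Kdm3a, a demethylase induced by low oxygen, was higher on average in thymocytes (median -3.98, range -6.18 to -2.68) than in fetal liver B cells (median -5.18, range -5.52 to -4.37), with overlap, by 0.997 (SE 0.46, adjusted p = 0.36).

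The Kdm5 genes encode demethylases of the active methyl mark on histone tails. Kdm5a (JARID1A) was dim and widely spread. It was at -4.82, -3.69 and -1.93 in IgM-negative B cells and at -7.52 and -7.24 in tg B cells, where it was not well above background. Its level was at least 3.35-fold higher in IgM-negative B cells (means -3.48 and -7.38, adjusted p = 0.19), a bound that was 1.96-fold without IgM-negative B 18 and 5.33-fold without IgM-negative B 16. Tg DP 4, at -6.79, and IgM-positive B 20, at -7.64, were not well above background either. Kdm5b (JARID1B) was at -0.70 and -0.05 in tg B cells, above the IgM-negative B arrays at -1.09, -0.93 and -0.82, with a difference of 0.58 (SE 0.23, adjusted p = 0.22). Its other 3 probes gave differences of -0.23, -0.25 and -0.29. The X-linked Kdm5c had the smallest spread of all members, between -0.29 and 0.30 on 24 arrays. Its Y-linked counterpart Kdm5d was well above background on 6 arrays: DN3 8, wt DP 3, tg DP 6B, IgM-negative B 17 and 18, and IgM-positive B 21. The tg DP arrays that share the title number 6 were at -5.60, -5.24 and -2.73 for Kdm5d. Xist, the RNA of the inactive X chromosome, and the Y-linked Eif2s3y were both well above background on all 24 arrays. The Y-linked Uty and Ddx3y were so on some arrays only. The sex of the samples was not tested.

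Kdm6a (UTX), an X-linked demethylase of the Polycomb methyl mark, was not well above background on any wt DP array, but so on all SP4 and SP8 arrays. It was at -7.02, -7.13 and -6.65 in wt DP cells, at -3.26, -4.29 and -4.61 in SP4 cells and at -4.10, -4.07 and -3.40 in SP8 cells. All SP arrays lay above all wt DP arrays. SP4 and SP8 were also the only groups with all arrays well above background, so the gene passed the filter only through them. The comparisons with wt DP cells are therefore no independent support for that order. The level was at least 2.86-fold higher in SP4 (means -4.05 and -6.93, adjusted p = 0.74) and at least 3.28-fold higher in SP8 cells (mean -3.86, adjusted p = 1.0). DN3 cells were at -4.15, -6.81 and -2.74, of which the lowest was not well above background and the highest lay above all SP arrays. The 3 wt DP arrays lay on slide 2 and the SP arrays on slides 1 and 3, so that slide and stage cannot be told apart for these comparisons. On slide 2 itself DN3 7, at -4.15, and tg DP 6, at -4.24, were well above background. The other tg DP arrays, 6A at -5.19, 6B at -5.40 and, on slide 1, 4 at -7.62, were not. Kdm6b (JMJD3), which has the same substrate, was even, with group means of -2.11 to -1.66.

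By family, differences between thymocytes and fetal liver B cells were positive for 34 of 46 members with a median of 0.13, against 57.2% of all genes with a median of 0.05. This held for 10 of 12 Smarc, 6 of 9 Chd, 8 of 10 Hdac and 10 of 15 Kdm genes. With arrays scaled to their median instead, 29 of 46 members were positive with a median of 0.04 (all genes 46.1% and -0.03). Quantile scaling left 5 of 10 Hdac and 8 of 15 Kdm genes positive, and with slide as a block the median was -0.05. Of the 18 members with several probes, 13 had all probes on the same side for thymocytes against B cells. In each of the other comparisons 6 to 10 of the 18 did. Along the thymocyte path, 22 of 46 members were higher in wt DP than in DN3 cells, and 20 were higher in SP4 than in wt DP cells. For SP8 against wt DP cells the count was 19, and 25 were higher in SP4 than in SP8 cells. As shares these are 47.8%, 43.5%, 41.3% and 54.3%, against 55.5%, 42.6%, 46.8% and 46.1% of all genes. The medians of these differences were -0.01, -0.02, -0.08 and 0.05, and those of all genes 0.03, -0.07, -0.02 and -0.03. With median scaling 28 members were higher in SP4 than in wt DP cells (median 0.03), and 28 were higher in SP4 than in SP8 cells (median 0.09). Of all genes, 47.9% and 51.2% were higher with that scaling. Both SP comparisons share the wt DP arrays. The counts of members whose arrays did not overlap were 5, 7, 4 and 6 of 46, against 11.9%, 15.4%, 10.7% and 10.7% of all genes. Such counts take every value as measured, including those not well above background.

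Tg DP minus wt DP differences had a median of -0.12 for the members and -0.06 for all genes, of which 58.8% were lower. Lower in tg DP cells were 29 of 46 members. These were 10 of 12 Smarc, 8 of 10 Hdac, 5 of 9 Chd and 6 of 15 Kdm genes. The differences were small: 3 members passed 1 on the log2 scale, and 4 did not overlap (6.88% of all genes). With median scaling 27 of 46 members were lower, with a median of -0.07, against 51.6% of all genes. Arrays 6, 6A and 6B share a title number and are possible repeats. So are wt DP 3 and 3A. The median SD over the members was 0.32 for the former and 0.27 for the latter, against 0.29 to 0.47 in the groups of 3.

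Of the 8 comparisons, tg B against IgM-negative B cells had the most members and the most genes with an unadjusted p under 0.05. Tg B cells were lower for 29 of 46 members and for 63.1% of all genes, with medians of -0.23 and -0.20. This direction turned with the scaling. Relative to each array's median, 21 of 46 members were lower and the median was 0.06 (all genes 44.5% and 0.09). With quantile scaling 26 were lower (median -0.09), against 53.1% of all genes (median -0.04). Arrays did not overlap for 14 members, while 33.0% of all genes did not. By family, 10 of 12 Smarc, 5 of 9 Chd, 5 of 10 Hdac and 9 of 15 Kdm genes were lower, and the Smarc median of -0.59 was -0.29 with median and -0.42 with quantile scaling (8 and 10 of 12 lower). The medians of the other families turned positive with median scaling, where 4 of 9 Chd, 4 of 10 Hdac and 5 of 15 Kdm genes were lower (medians 0.19, 0.27 and 0.22). With quantile scaling 5 Kdm, 5 Chd and 6 Hdac genes were lower (medians 0.24, -0.11 and -0.04). Tg B, the group with the fewest arrays and with the dimmest array, had the lowest group mean for 16 of the 46 members. The share of all genes with their lowest mean in tg B was not counted, so the 16 of 46 cannot be read as a trait of the members. Tg B 23 held the lowest value of 7 members and the highest of 7 others. Without tg B 22, tg B 23 is the lone tg B array and has to be assumed to vary like the other groups. In that fit Smarca4 (-2.42), Smarcal1 (-1.58), Smarce1 (-1.73) and Smarcb1 (-0.97) were lower than in IgM-negative B cells. Chd4 (0.84), Kdm5b (0.90) and Smarcc1 (0.73) were higher. These members were picked for their values in that fit. A fit without tg B 23 also leaves 1 tg B array. Calls from either fit are therefore not read as results. They enter only the ranges of members called over the settings, given in the last section.

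IgM-positive minus IgM-negative B differences had a median of -0.20 for the members and -0.14 for all genes, of which 65.9% were lower. Lower in IgM-positive cells were 31 of 46 members. These were 9 of 12 Smarc, 8 of 9 Chd, 5 of 10 Hdac and 9 of 15 Kdm genes. With median scaling 26 members (median -0.05) and 49.0% of all genes (median 0.01) were lower. Those 26 members were 8 Chd (median -0.25), 7 Smarc, 4 Hdac and 7 Kdm genes. The Kdm median was -0.04 with the 75th percentile and 0.12 with median scaling, and the Hdac median -0.07 and 0.09. Arrays did not overlap for 11 members, against 13.4% of all genes. The tg B and IgM-positive comparisons share the IgM-negative arrays as controls.

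Genes that work with these families were counted in 8 lists (partners of BAF, of NuRD, of Sin3, CoREST and NCoR, and of ISWI, INO80 and SRCAP, with sirtuins, other JmjC proteins, histone methyltransferases and histone acetyltransferases). Of their 122 tested genes, 1 passed in any comparison: Ezh2, the methyltransferase of Polycomb complex PRC2, which writes the mark that Kdm6a and Kdm6b remove. It was higher on average in wt thymocytes than in fetal liver B cells, with overlap of the arrays, in a comparison where 0.203% of all genes passed. Its group means were -6.31 in DN3, -4.94 in wt DP, -4.88 in SP4, -4.86 in SP8, -6.42 in IgM-negative and -7.23 in IgM-positive B cells. The probe was well above background on 8 of 12 thymocyte arrays and on 0 of 6 B arrays, so its level was at least 1.26-fold higher (means -5.25 and -6.82, adjusted p = 0.045). Of the DN3 arrays, at -7.18, -5.49 and -6.27, 1 was well above background. Ezh2 passed the filter only through SP4 cells, a group on the side where it was higher. The call is therefore no independent support for the difference. The call held under 4 of 18 fits that left out 1 array and 3 of 11 other settings, with adjusted p-values from 0.032 to 0.75. Between tg B and IgM-negative B cells 84 of the 122 (68.9%) were lower, against 63.1% of all genes, and with median scaling 53 (43.4%, against 44.5%). Between IgM-positive and IgM-negative B cells 89 (73.0%) were lower, against 65.9% of all genes, and with median scaling 72 (59.0%, against 49.0%). In the other lists and comparisons 0 genes passed in limma, and 2 to 24 of the 122 had an unadjusted p under 0.05. The 24 for tg B against IgM-negative B cells are 19.7%, against 17.1% of all genes, and the 2 for tg DP against wt DP cells are 1.64%, against 3.28%.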

How the data were processed

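RNA of 24 sorted samples, amplified by PCR (SuperAmp) and labelled with Cy3 per the labels' protocols, was read on 1 Agilent array each (design 028005). The deposited spot intensities are background-subtracted processed signals from Feature Extraction 10.7.3.1, per the file headers. As an alternative, the authors' log2 values in the deposited matrix were used; their medians all equal 7.93 and they keep the order of each array's own signals. As PCR product was labelled, sense and antisense transcripts cannot be told apart.

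Control spots (3671 of 62976) were left out, 248 non-uniform values set to missing, spots of a probe averaged (55681 probes), and log2 signals scaled to each array's 75th percentile. A gene took its brightest probe and was kept if all arrays of some group had a probe well above background (95.1% of probes), which left 33583 genes, of which 33574 were tested. Limma 3.58.1 (R 4.3.3; lmFit, eBayes) was fitted to the 24 arrays together, with a mean per group and without covariates, and checked on simulated data. P-values were Benjamini-Hochberg adjusted over all genes, with a threshold of 0.05. Python 3.11.15 made the tables. The number of arrays limits the precision.

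The members, lists and tests were chosen with earlier results of these data known. Named members were those passing, the 3 smallest unadjusted p under 0.05 in each direction of a comparison, the 6 smallest over the groups, the 2 brightest and 2 dimmest of each family, and 14 fixed genes. Other members and genes named for their values (Smarce1, Smarcal1, Hdac11, Kdm3a and marker genes) were chosen after the values were seen. Alternatives were normexp, quantile and median scaling, the authors' matrix, both filters, the mean over probes, slide as a block, array weights, only the groups compared, repeats averaged, each array left out and, added after seeing the data, tg B 23, tg DP 4 and IgM-positive B 21 left out together, each array left out of the bounds, and the scaling of the partner lists.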

Additional observations from a re-analysis of the deposited data

Results flagged for a closer look

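Among the 4 tg DP arrays, the Chd8 level of 2.54 on tg DP 4 lay apart from the others, at 3.11 to 3.20, by a gap of 0.864 of the range. Of 46 members tested in this way 1 was set apart, and chance does so for about 1 in 20 groups of arrays. Tg DP 4 is the only tg DP array on slide 1.

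For 2 of 28 named members, all tg arrays of one cell type lay on one side of the mean of their control group. All tg arrays of the other cell type lay on the opposite side of theirs. Hdac7 differed by 0.34 between tg B and IgM-negative B cells and by -0.20 between tg DP and wt DP cells. The B arrays overlap for it, since tg B 22 was at 7.37 and IgM-negative B 18 at 7.53. Kdm5b differed by 0.58 between tg B and IgM-negative B cells and by -0.17 between tg DP and wt DP cells. Its other probes gave -0.23, -0.25 and -0.29 for the B cells and -0.38, -0.54 and 0.02 for the DP cells. These differences of differences were not tested, and each rests on 2 tg B arrays.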

How the results depend on the processing

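The count of members called was 0 in every comparison under every setting except fits that left out 1 array, where it ranged from 0 to 7 for tg B minus IgM-negative B and from 0 to 2 for the test over all groups (both maxima without tg B 22). Over the settings that leave out no single array, the smallest adjusted p of any member was 0.069 for thymocytes minus B cells and 0.095 over the groups. The thymocyte minus B difference of Smarcc1 reversed to -0.053 with the mean over its probes and to -0.023 with slide as a block, and that of Kdm4c to -0.12 with slide as a block. With the mean over probes, SP4 minus SP8 reversed to 0.0581 for Smarca4 and tg B minus IgM-negative B to -0.0484 for Kdm5b. The cause was not tested. Median differences of members and of families moved by less than the spread between arrays in 753 refits and by more in 27. Counts over all genes moved more: with no array left out they ranged from 5 to 207 for thymocytes minus B cells, 0 to 65 for tg B, 9 to 103 over the groups, 0 to 27 for SP4 minus wt DP and 0 to 7 for IgM-positive minus IgM-negative B. Leaving out 1 array gave 0 to 336 for the first of these. For tg B and over the groups such fits include those with 1 tg B array, whose counts over all genes are not given. The counts of members called in those fits, within the ranges above, are not read as results. No paired analysis was possible because the groups share no replicate numbers. Signal over background limits the dim members most.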
